A study of Homo sapiens with 10 samples.

Results

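Cholesterol and fatty acid synthesis genes were followed through a set of human lung cell cultures that differ in their response to the microtubule-stabilising drug discodermolide. The set was chosen by gene name, with earlier results of these data known. It comprises 31 listed genes of the mevalonate pathway, the sterol pathway, sterol sensing and fatty acid synthesis, each read from the probe set that the array annotation assigns to that gene alone. Of these, 29 were measured, among 18279 genes in all. FDFT1 had no probe set in the annotation used here, and the probe set of HSD17B7 is shared with its pseudogene, so neither was analysed here. CYP51A1 had 2 probe sets, of which the one with the higher mean was used. FDPS has further probe sets shared with a pseudogene, and its own probe set could share signal with that copy.

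The 10 arrays fall into 4 groups, each sample hybridised once. A549, a lung adenocarcinoma line, was grown with 0.01% DMSO and is labelled sensitive (A549 DMSO, n = 4), or was treated with 32 nM discodermolide and is labelled senescent (A549 disco, n = 2). AD32, labelled resistant, was grown in 32 nM discodermolide (n = 3), so that the line and the drug come together in this group. AD32 4E-BP1, labelled sensitive, was treated with 0.01% DMSO (n = 1) and bears the name of 4E-BP1, a repressor of cap-dependent translation. The labels give no treatment time and do not say how AD32 arose or whether it is a clone. They call the samples of the 3 replicated groups biological replicates, without saying how these were grown apart, and the p-values measure the spread between these samples. All levels are log2 signals as deposited, with no detection call. A difference of 1 is a doubling of signal.

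Cholesterol is built from acetyl-CoA through mevalonate, isoprenoids, squalene and lanosterol, and fatty acids from the same precursor through malonyl-CoA. The transcription factors SREBP-1 and SREBP-2, encoded by SREBF1 and SREBF2, drive these genes. They are carried from the endoplasmic reticulum by SCAP when sterols are scarce and are held there by the INSIG proteins when sterols are abundant. SREBP-1 acts mainly on fatty acid genes and SREBP-2 mainly on sterol genes, usually together with NF-Y and Sp1 bound nearby. Proliferating tumour cells often keep both routes active to supply membranes.

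Promoter windows are shown for 4 members: SCD and PMVK, the members that passed the test; ACLY, a fatty acid gene that was low on the same arrays as SCD; and SREBF2, the only member whose window holds the sterol motif searched. The sequences are from RefSeq (GRCh38.p14), 250 bases before to 50 after the annotated start, 5′ to 3′ on the gene's strand. SCD lies at chr10:100346983-100347282 (+ strand), ACLY at chr17:41918973-41919272 (- strand), PMVK at chr1:154936670-154936969 (- strand) and SREBF2 at chr22:41832855-41833154 (+ strand). Capitals mark TCACNCCAC (part of a sterol response element), CCAAT (an NF-Y box) and GGGCGG (a GC box), each searched on both strands, with overlapping matches merged.
SCD: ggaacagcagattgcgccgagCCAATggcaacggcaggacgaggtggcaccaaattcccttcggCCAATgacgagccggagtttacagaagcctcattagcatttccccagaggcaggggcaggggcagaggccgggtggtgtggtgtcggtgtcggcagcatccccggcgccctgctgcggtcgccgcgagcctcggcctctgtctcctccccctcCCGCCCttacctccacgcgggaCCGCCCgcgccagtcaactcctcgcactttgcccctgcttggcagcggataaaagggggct
ACLY: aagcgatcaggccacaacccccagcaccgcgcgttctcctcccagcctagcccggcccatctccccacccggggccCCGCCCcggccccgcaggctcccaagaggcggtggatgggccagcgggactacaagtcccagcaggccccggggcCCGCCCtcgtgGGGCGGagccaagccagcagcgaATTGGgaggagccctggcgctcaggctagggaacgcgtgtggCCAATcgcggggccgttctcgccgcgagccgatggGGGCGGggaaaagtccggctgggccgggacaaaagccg
PMVK: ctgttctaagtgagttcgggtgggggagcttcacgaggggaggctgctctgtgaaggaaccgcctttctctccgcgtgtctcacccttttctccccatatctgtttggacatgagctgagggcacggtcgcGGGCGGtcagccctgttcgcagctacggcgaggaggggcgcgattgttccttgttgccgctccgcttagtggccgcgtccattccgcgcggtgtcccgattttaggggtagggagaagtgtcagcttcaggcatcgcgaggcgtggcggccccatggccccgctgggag
SREBF2: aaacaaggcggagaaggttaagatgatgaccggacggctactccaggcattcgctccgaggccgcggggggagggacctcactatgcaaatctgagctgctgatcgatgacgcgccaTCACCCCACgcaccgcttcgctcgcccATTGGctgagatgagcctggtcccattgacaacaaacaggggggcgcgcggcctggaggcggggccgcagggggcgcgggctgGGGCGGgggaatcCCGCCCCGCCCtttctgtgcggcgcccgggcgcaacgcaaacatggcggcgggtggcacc

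Of the 29 measured members, 26 had at least 1 window in the RefSeq table. CCAAT was found for 19 of the 26 (73.1%), against 42.2% of the 14197 measured genes with a window. GGGCGG was found for 25 of the 26 (96.2%), against 66.0%. TCACNCCAC was found for 1 of the 26 (3.85%), against 1.51%. Genes with several starts have several windows and so more chances of a match. Over single windows of the same length, CCAAT was in 34.6%, GGGCGG in 45.0% and TCACNCCAC in 1.13% of all 35116. The SCD window holds 2 CCAAT and 2 GC boxes, the ACLY window 2 and 4, the SREBF2 window 1 and 3, and the PMVK window no CCAAT and 1 GC box. These are matches of letters and not shown binding sites.

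Every member lay above the lower quartile of every array, which does not by itself show detection. The lowest member value was 6.24 (ACAT2 on AD32 replicate 1), above the lower quartile of each array (4.77 to 4.94), and 1 value lay below its array's median. The cultures carried the simple-epithelial keratin KRT8 at 12.67 to 13.73 on every array. The other epithelial markers were mixed, with CDH1 at 8.46 to 10.40 and EPCAM (3.30 to 3.87) below the lower quartile. Of the alveolar markers, LPCAT1 was at 8.01 to 10.06 and the defining factor NKX2-1 (4.58 to 5.11) near the lower quartile. Of the leukocyte markers, CD68, a lysosomal protein gene, was at 8.34 to 10.71, and the defining marker PTPRC (2.77 to 3.20) below the lower quartile. Some arrays stood apart within their own group. The mean level of 20 G2/M and mitosis genes was 6.87 on A549 DMSO replicate 1 against 9.92 to 10.08 on the other A549 DMSO arrays. It was 6.71 and 6.90 on the A549 disco arrays, 5.36 and 6.27 on AD32 replicates 1 and 2, 9.68 on AD32 replicate 3 and 9.88 on AD32 4E-BP1. A549 DMSO replicates 3 and 4 were nearly identical, with 1 gene of 18279 over 2-fold apart, against 95 to 2126 genes for the other pairs of that group. They were kept as separate samples, and results with their mean are given where a call ended.

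The main pattern was a split within AD32. AD32 replicates 1 and 2 were low in fatty acid synthesis genes. Their mevalonate means were also the lowest, but 8.31 on AD32 replicate 2 was close to 8.34 on A549 DMSO replicate 1. The median deviation of mevalonate genes from their means over all arrays was -0.32 and -0.24 on AD32 replicates 1 and 2. It was -0.32 on A549 DMSO replicate 1. The means of both lists on AD32 replicate 3 lay within or above the A549 DMSO range. The mean level of the 7 fatty acid genes was 8.91 and 9.04 on AD32 replicates 1 and 2 and 10.31 on AD32 replicate 3. It was 10.05 to 10.24 on the A549 DMSO arrays, 10.03 and 9.97 on the A549 disco arrays and 10.28 on AD32 4E-BP1. AD32 replicates 1 and 2 thus lay about 1 log2 unit under the 8 other arrays, which spanned 9.97 to 10.31. RNA came from whole cultures, so that fewer expressing cells and less RNA per cell cannot be told apart.

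**Figure D1:**
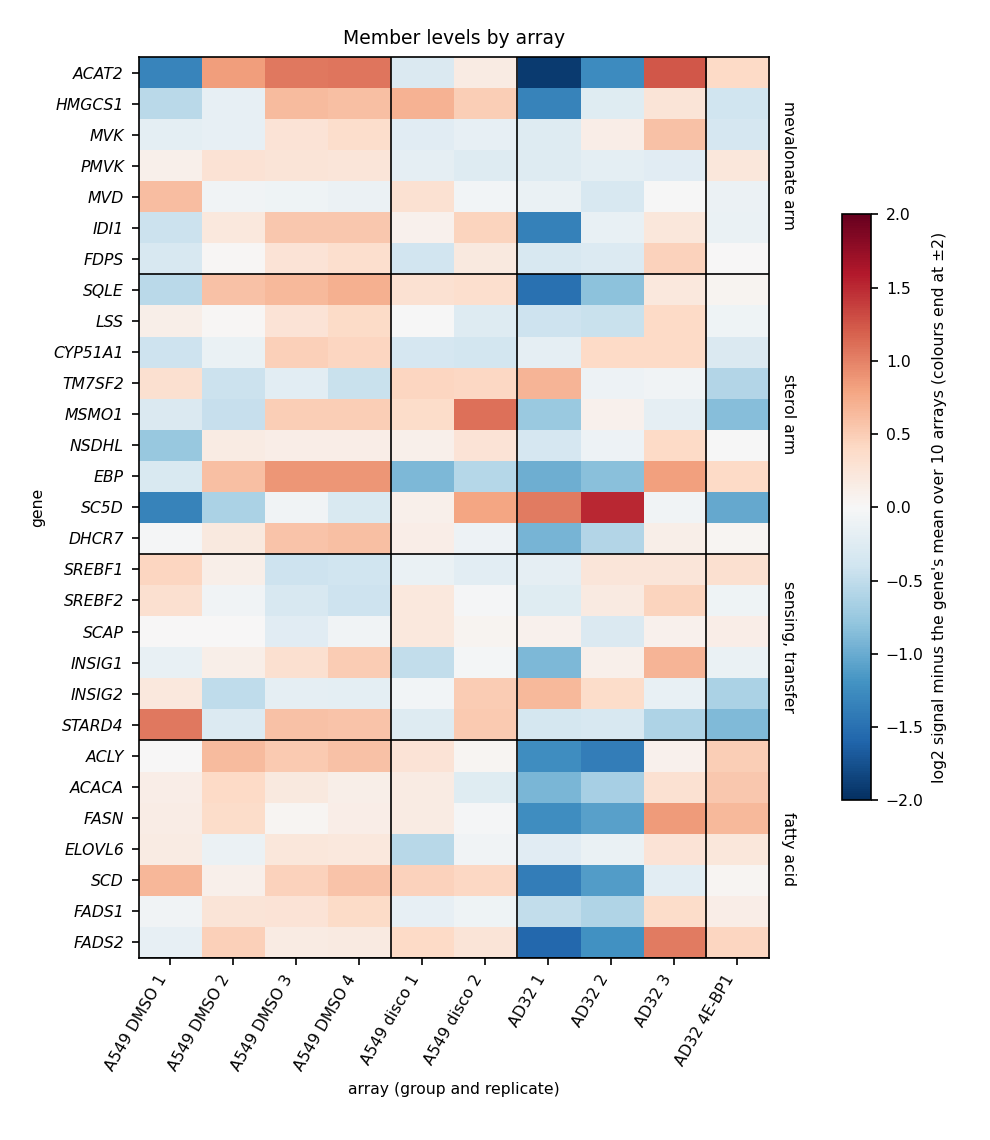
Levels of the 29 measured members (rows, by pathway role) on the 10 arrays (columns, by group and replicate), each as log2 signal minus the gene's mean over all arrays, with blue lower and red higher. AD32 replicates 1 and 2 are blue across the fatty acid rows and AD32 replicate 3 is not, while SC5D is red on AD32 replicates 1 and 2.

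The split also showed in counts over all members. Against AD32 replicate 1, AD32 replicate 3 was higher for 24 of the 29 members, compared with 43.0% of all genes, and over 2-fold higher for 12, compared with 5.44% of all genes. Against AD32 replicate 2 it was higher for 23 members (48.0% of all genes) and over 2-fold higher for 6 (4.70% of all genes). AD32 replicate 1 was the lowest of the 10 arrays for 12 members (10.7% of all genes), and AD32 replicate 3 was the highest for 10 (8.79% of all genes). Within AD32, 13 members (44.8%) spanned over 2-fold, as did 12.5% of all genes. In A549 DMSO 6 members (20.7%) did, against 14.5% of all genes, and in A549 disco 0, against 0.514%.

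Mitotic genes were low on the same AD32 arrays, and their part in the split was not tested. AD32 replicates 1 and 2 had G2/M means of 5.36 and 6.27 and fatty acid means of 8.91 and 9.04, the lowest in both lists. A549 DMSO replicate 1 and both A549 disco arrays had G2/M means of 6.71 to 6.90 and fatty acid means of 9.97 to 10.05. The mevalonate mean was 7.84 and 8.31 on AD32 replicates 1 and 2 and 9.00 on AD32 replicate 3. It was also low on A549 DMSO replicate 1 (8.34, against 8.77 to 9.06 on the other A549 DMSO arrays). The A549 disco arrays were at 8.64 and 8.75. The AD32 4E-BP1 array, with a G2/M mean of 9.88, had a mevalonate mean of 8.59. The sterol arm mean was lowest on AD32 replicate 1 (8.69) and A549 DMSO replicate 1 (8.71), followed by AD32 4E-BP1 (8.80). The sensing and transfer genes spanned the narrowest range, 8.46 on AD32 4E-BP1 to 8.99 on A549 DMSO replicate 1.

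**Figure D2:**
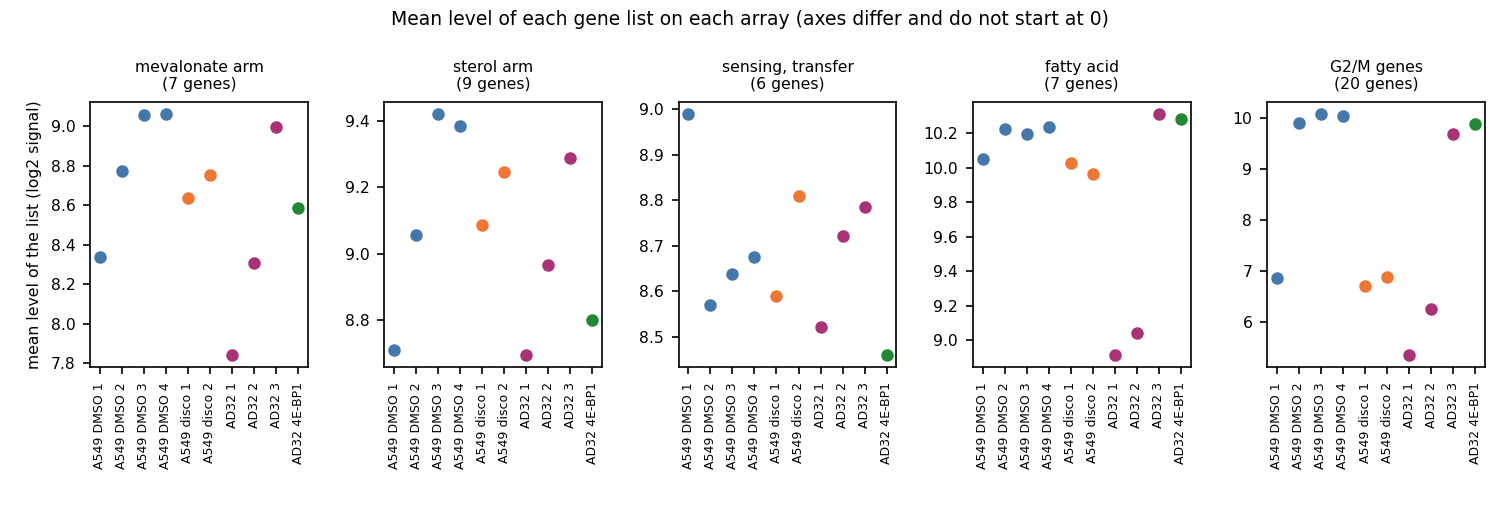
Mean log2 signal of each member role and of 20 G2/M genes on each array (1 point per array, coloured by group, axes not starting at 0). The fatty acid genes are at 8.91 and 9.04 on AD32 replicates 1 and 2 and between 9.97 and 10.31 elsewhere. The G2/M genes are lowest on AD32 replicates 1 and 2 and also low on A549 DMSO replicate 1 and both A549 disco arrays.

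The comparison of AD32 with A549 DMSO asks which members differ with resistance and growth in the drug together. SCD, the desaturase that puts the first double bond into saturated fatty acids, and PMVK, the phosphomevalonate kinase, fell. They were the only members called, 2 of 29 (6.90%), all lower, at an adjusted p under 0.05 by limma with Benjamini-Hochberg adjustment over all genes. That share is near the 5.72% of all genes called in this comparison (2.19% called lower). The median log2 difference of the members was -0.35, against 0.01 over all genes, with 20 members lower and 9 higher (48.2% of all genes were lower). An unadjusted p under 0.05 was found for 8 members (against 19.7% of all genes). All arrays of AD32 lay below all of A549 DMSO for 3 members, PMVK, SCD and STARD4 (6.48% of all genes did so), and above for 1, SC5D (8.90%).

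SCD was 11.51, 10.95, 11.32 and 11.43 on the A549 DMSO arrays, replicates 1 to 4, and 9.47, 9.74 and 10.65 on AD32 replicates 1 to 3. The groups did not overlap, and AD32 replicate 3 lay nearest to A549 DMSO. The means were 11.30 ± 0.25 (SD, n = 4) and 9.95 ± 0.62 (SD, n = 3), a 2.55-fold fall (log2 difference -1.35, SE 0.27, limma adjusted p = 0.0196). Leaving out AD32 replicate 1 or 2 ended the call (limma adjusted p = 0.0719 and 0.0878), as did leaving out replicate 3 or 4 of A549 DMSO (0.0621 and 0.0667) or averaging those near-identical arrays (0.065). Over all alternatives the limma adjusted p ran from 9.75e-05 to 0.0878. SCD on the A549 disco arrays was 11.32 and 11.26, within the range of A549 DMSO.

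PMVK was 8.27, 8.46, 8.43 and 8.41 in A549 DMSO and 7.92, 7.98 and 7.95 in AD32. Here the AD32 arrays lay close together, and AD32 replicate 3 did not stand apart. The means were 8.39 ± 0.08 (SD, n = 4) and 7.95 ± 0.03 (SD, n = 3), a 1.36-fold fall (log2 difference -0.45, SE 0.11, limma adjusted p = 0.0456). The A549 disco arrays averaged 7.96 ± 0.05 (SD, n = 2), level with AD32, and AD32 4E-BP1 at 8.40, level with A549 DMSO. The call was fragile, since it ended under 11 of 17 alternatives. Omitting AD32 replicate 1, 2 or 3 gave limma adjusted p-values of 0.127, 0.112 and 0.0618, and omitting A549 DMSO replicate 2, 3 or 4 gave 0.106, 0.131 and 0.137. Over all alternatives the adjusted p ran from 0.0131 to 0.154.

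Like SCD, the other fatty acid genes were lower on AD32 replicates 1 and 2 than on AD32 replicate 3. Within A549 DMSO they did not all follow SCD, which was highest on replicate 1, where ACLY, FADS1 and FADS2 were lowest. FASN, the synthase that assembles palmitate, was 9.48, 9.70, 9.37 and 9.46 in A549 DMSO, 8.09 and 8.25 on AD32 replicates 1 and 2 and 10.18 on AD32 replicate 3. AD32 therefore lay on both sides of A549 DMSO, and the group difference of -0.66 (SE 0.43) had a limma adjusted p of 0.478. ACLY, which makes cytosolic acetyl-CoA from citrate, was 11.86, 12.48, 12.38 and 12.44 in A549 DMSO and 10.62, 10.47 and 11.94 in AD32 (log2 difference -1.28, SE 0.34, limma adjusted p = 0.06). Only AD32 replicate 3 and A549 DMSO replicate 1 overlapped.

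ACACA, the carboxylase that makes malonyl-CoA, was 8.69 to 8.97 in A549 DMSO and 7.66, 7.91 and 8.88 in AD32 (limma adjusted p = 0.225). FADS2, a desaturase of polyunsaturated fatty acids, was 10.25 to 10.89 in A549 DMSO and 8.84, 9.20 and 11.46 in AD32, again on both sides (adjusted p = 0.526). FADS1, another such desaturase, was 10.59 to 11.04 in A549 DMSO and 10.16, 10.06 and 11.02 in AD32. ELOVL6, an elongase of saturated chains, differed least, with 7.66 to 8.01 in A549 DMSO and 7.56, 7.66 and 8.06 in AD32. All 7 fatty acid genes had lower means in AD32, with a median log2 difference of -0.66 and 1 called.

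Without AD32 replicate 3, 11 of 29 members were called, where 10.8% of all genes were. The fatty acid genes then gave 6 calls of 7, all lower: FADS2 (2.94-fold), ACLY (3.36-fold), SCD (3.24-fold), FASN (2.52-fold), ACACA (2.01-fold) and FADS1 (1.69-fold). Their limma adjusted p-values lay between 0.00101 and 0.0202. The array left out was the AD32 array highest in these same genes, which favours such calls. These p-values are therefore not independent support. SQLE (2.84-fold), EBP (2.69-fold), DHCR7 (2.13-fold) and LSS (1.54-fold) were also called lower and SC5D (3.62-fold) higher. No member was called without AD32 replicate 1, AD32 replicate 2, A549 DMSO replicate 3 or A549 DMSO replicate 4, so the count of 2 rests on which arrays are used. Without A549 DMSO replicate 1 it was 4 (11.8% of all genes), namely PMVK, SCD, SQLE and ACLY. With both A549 DMSO replicate 1 and AD32 replicate 3 left out it was 17, where 28.3% of all genes were called.

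**Figure D3:**
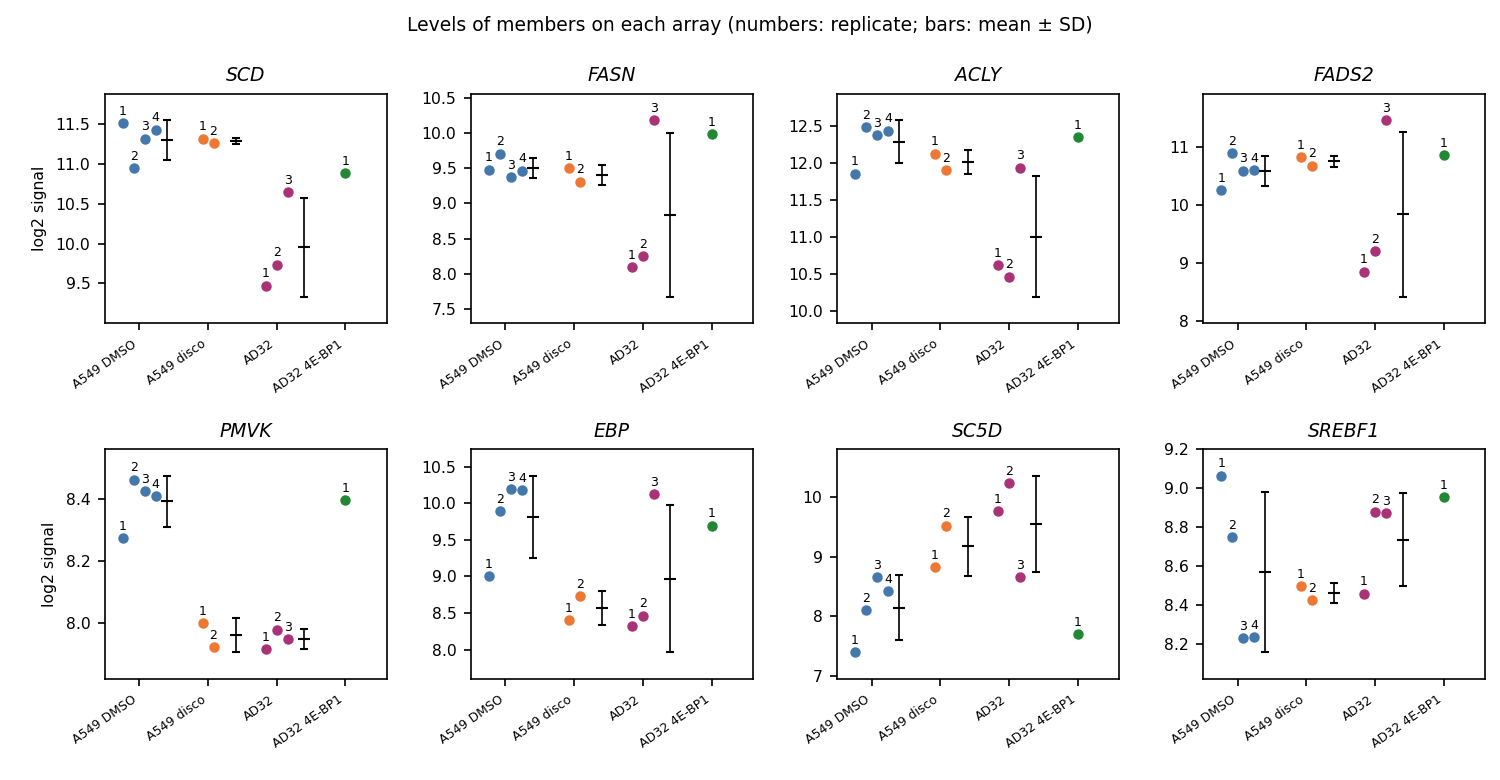
Log2 signal of 8 members on each array (points, numbered by replicate) with the group mean ± SD beside them where a group has over 1 array; axes differ and do not start at 0. SCD, FASN, ACLY and FADS2 are low on AD32 replicates 1 and 2, PMVK is near 8 on all AD32 and A549 disco arrays, and SREBF1 overlaps among the groups.

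None of the 9 sterol arm genes passed the test in AD32, and their differences had both signs. SC5D, a desaturase near its end, was 7.40, 8.10, 8.65 and 8.42 in A549 DMSO and 9.76, 10.24 and 8.66 in AD32. All AD32 arrays lay above, AD32 replicate 3 only just, and the difference of 1.41 (SE 0.41) did not pass (limma adjusted p = 0.0857). EBP, the sterol isomerase, ran the other way. It was 9.00, 9.89, 10.19 and 10.18 in A549 DMSO and 8.32, 8.46 and 10.12 in AD32 (log2 difference -0.85, SE 0.45, limma adjusted p = 0.358).

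SQLE, the squalene epoxidase, was 9.44, 10.56, 10.62 and 10.69 in A549 DMSO and 8.49, 9.15 and 10.19 in AD32 (log2 difference -1.05, SE 0.42, limma adjusted p = 0.201). DHCR7, the reductase of the last step, was lower by 0.80 (SE 0.25, adjusted p = 0.113). CYP51A1, the lanosterol demethylase, was 9.68 to 10.58 in A549 DMSO and 9.93, 10.50 and 10.50 in AD32. MSMO1 was 8.25, 9.08 and 8.81 in AD32 and TM7SF2 8.51, 7.74 and 7.77, both overlapping A549 DMSO. LSS, which makes lanosterol, and NSDHL, MSMO1 and TM7SF2, which act after it, had log2 differences from -0.35 to 0.36 and did not pass.

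Among mevalonate genes, the widest spread was that of ACAT2, the cytosolic thiolase that joins acetyl-CoA units. It was 6.24, 6.89 and 9.38 in AD32 and 6.82, 8.98, 9.21 and 9.22 in A549 DMSO, so that each group held arrays near 6.8 or lower and arrays above 9. Its difference of -1.05 had an SE of 0.79 and a limma adjusted p of 0.559. HMGCS1, which makes HMG-CoA, was 8.03, 9.12 and 9.61 in AD32 and 8.82, 9.19, 9.99 and 9.95 in A549 DMSO. IDI1, the isopentenyl isomerase, was likewise lowest on AD32 replicate 1 (8.47, with all other arrays at 9.38 or above). MVK, MVD and FDPS had log2 differences between -0.24 and 0.08.

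The regulators of the pathway did not pass in AD32. SREBF1 was 8.46, 8.88 and 8.87 in AD32 and 9.07, 8.75, 8.23 and 8.23 in A549 DMSO (log2 difference 0.17, 95% interval -0.34 to 0.67). SREBF2 was 8.36, 8.78 and 9.03 in AD32 and 8.92, 8.52, 8.28 and 8.18 in A549 DMSO (0.25, interval -0.25 to 0.75). AD32 replicates 1 and 2, low in fatty acid genes, thus lay within the A549 DMSO range for both transcripts. INSIG1, itself an SREBP target, was 7.08, 8.08 and 8.65 in AD32 and 7.82, 8.09, 8.30 and 8.49 in A549 DMSO (-0.24, limma adjusted p = 0.801). INSIG2 was 8.73, 8.43 and 7.92 in AD32 and 8.28, 7.56, 7.89 and 7.87 in A549 DMSO (0.46, adjusted p = 0.356). SCAP differed by 0.02. STARD4, a carrier of cholesterol between membranes, was 9.54, 9.57 and 9.28 in AD32, below 10.95, 9.63, 10.48 and 10.47 in A549 DMSO (-0.92, SE 0.30, adjusted p = 0.123). It was called without A549 DMSO replicate 2 (log2 difference -1.17, limma adjusted p = 0.0353).

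Discodermolide treatment of A549 was compared with DMSO to see how the sensitive line responds. No member was called by limma (0 of 29, against 0.372% of all genes), and 2 had an unadjusted p under 0.05 (6.90%, against 11.1% of all genes). The median log2 difference was -0.11, against 0.02 over all genes. Both treated arrays lay above all A549 DMSO arrays for 3 members (15.2% of all genes) and below for 4 (7.71% of all genes). EBP was the lowest relative to control, at 8.40 and 8.73 against 9.00 to 10.19 (log2 difference -1.25, SE 0.51, limma adjusted p = 0.406). A549 DMSO replicate 1, low in mitotic genes, was the nearest control at 9.00. Without A549 DMSO replicate 1, 0 of 29 members were called (3.52% of all genes). With A549 DMSO replicate 1 and AD32 replicate 3 both left out, EBP was called lower (2.87-fold, limma adjusted p = 0.000228), as were ACAT2 and PMVK, and TM7SF2, a sterol reductase, was called higher. That is 4 members of 29, where 14.5% of all genes were called.

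SC5D stood 1.03 higher in treated A549 (8.82 and 9.52, SE 0.46, limma adjusted p = 0.459), MSMO1, a methylsterol oxidase, 0.67 higher (9.36 and 10.08 against 8.52 to 9.49) and TM7SF2 0.61 higher (8.27 and 8.24 against 7.38 to 8.16). HMGCS1 was 10.06 and 9.86, SQLE 10.28 and 10.31, CYP51A1 9.77 and 9.73, INSIG1 7.48 and 7.94 and STARD4 9.64 and 10.41 in treated A549, each overlapping DMSO. ACAT2 was 7.85 and 8.31 in treated A549, within the DMSO range. The fatty acid genes had a median of -0.25 with 0 of 7 called. FASN was 9.50 and 9.31 in treated A549, and the interval of its difference from DMSO ran from -1.21 to 1.01. The interval for SCD ran from -0.69 to 0.67. These intervals leave room for changes of up to about 2-fold either way for FASN.

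AD32 and A549 disco were then compared, both in 32 nM discodermolide. No member was called by limma (0 of 29, against 3.74% of all genes), and 3 had an unadjusted p under 0.05 (15.5% of all genes did). SCD came nearest, 2.52-fold lower in AD32 (log2 difference -1.34, SE 0.32, limma adjusted p = 0.0562), with all AD32 arrays below both treated A549 arrays. HMGCS1 and SQLE had the next largest falls, with log2 differences of -1.04 and -1.02, and did not pass. Their means were 8.92 and 9.28 in AD32, against 9.96 and 10.30 in A549 disco. MSMO1 and ACLY were lower by 1.01 each (SE 0.38 and 0.40, limma adjusted p = 0.219 and 0.254). The median over the members was -0.21, against 0.01 over all genes, with 1 member having all AD32 arrays above (14.4% of all genes) and 5 below (18.0%).

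Without AD32 replicate 3, 4 members of 29 were called in this comparison (against 5.92% of all genes), all lower and all fatty acid genes. FADS2 was 3.30-fold, SCD 3.21-fold, ACLY 2.78-fold and FASN 2.35-fold lower, with limma adjusted p-values from 0.00315 to 0.00871. G2/M means on these 4 arrays were 5.36 and 6.27 for AD32 and 6.71 and 6.90 for A549 disco. The comparison shares its AD32 arrays with the one against A549 DMSO, so that the calls of both rest on the same AD32 values. AD32 replicate 3 was the AD32 array highest in FADS2, SCD, ACLY and FASN, so leaving it out favours these calls.

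On the AD32 4E-BP1 array 4 of the 7 fatty acid genes lay within the A549 DMSO range, ACACA and FASN above it and SCD (10.89, against 10.95 to 11.51) below it. This group is a lone array, assumed to vary like the other groups, and no member was called against AD32 (0 of 29, against 0.919% of all genes). There were 6 members with an unadjusted p under 0.05 (9.46% of all genes). The array lay above all AD32 arrays for 6 members (23.9% of all genes) and below for 7 (27.7%). All 7 fatty acid genes were higher than the AD32 mean, with a median log2 difference of 0.97, against -0.03 over all genes. AD32 replicate 3, however, was level with or above the AD32 4E-BP1 array for 4 of them. FASN was 9.98 on AD32 4E-BP1 and 10.18 on AD32 replicate 3, FADS2 10.85 and 11.46, FADS1 10.79 and 11.02, and ELOVL6 8.01 and 8.06. ACLY (12.35), ACACA (9.12) and SCD (10.89) lay above all 3 AD32 arrays, with log2 differences of 1.35, 0.97 and 0.93 (SE 0.51, 0.40 and 0.40; limma adjusted p = 0.42, 0.494 and 0.513).

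SC5D was lower on AD32 4E-BP1 (7.70) than on any AD32 array (log2 difference -1.85, SE 0.62, limma adjusted p = 0.333), as was INSIG2 (7.43, difference -0.93). TM7SF2 (7.24) and MSMO1 (8.14) also lay below every AD32 array, and ACAT2 was at 8.55, within the AD32 range. Without AD32 replicate 3, 6 of 29 members were called against AD32 (where 3.59% of all genes were). ACLY, ACACA, FASN, SCD and FADS2 were then 2.43-fold to 3.55-fold higher and SC5D 4.93-fold lower, with limma adjusted p-values from 0.00332 to 0.0466. With A549 DMSO replicate 1 also left out, 11 were called, where 16.4% of all genes were. Within AD32, replicate 3 was highest in ACLY, ACACA, FASN, SCD and FADS2 and lowest in SC5D, so leaving it out favours such calls. The AD32 arrays are shared with the comparisons above. Against A549 DMSO, AD32 4E-BP1 had 0 of 29 members called by limma, as it had 0 of all genes (0%), with 1 member (STARD4) and 1.14% of all genes at an unadjusted p under 0.05. The array lay above all A549 DMSO arrays for 3 members (15.1% of all genes) and below for 7 (15.9%). STARD4 was 9.01, lower by 1.37 (SE 0.44, limma adjusted p = 1). SREBF1 was 8.95 and SREBF2 8.51 on this array, both within the range of A549 DMSO.

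**Figure D4:**
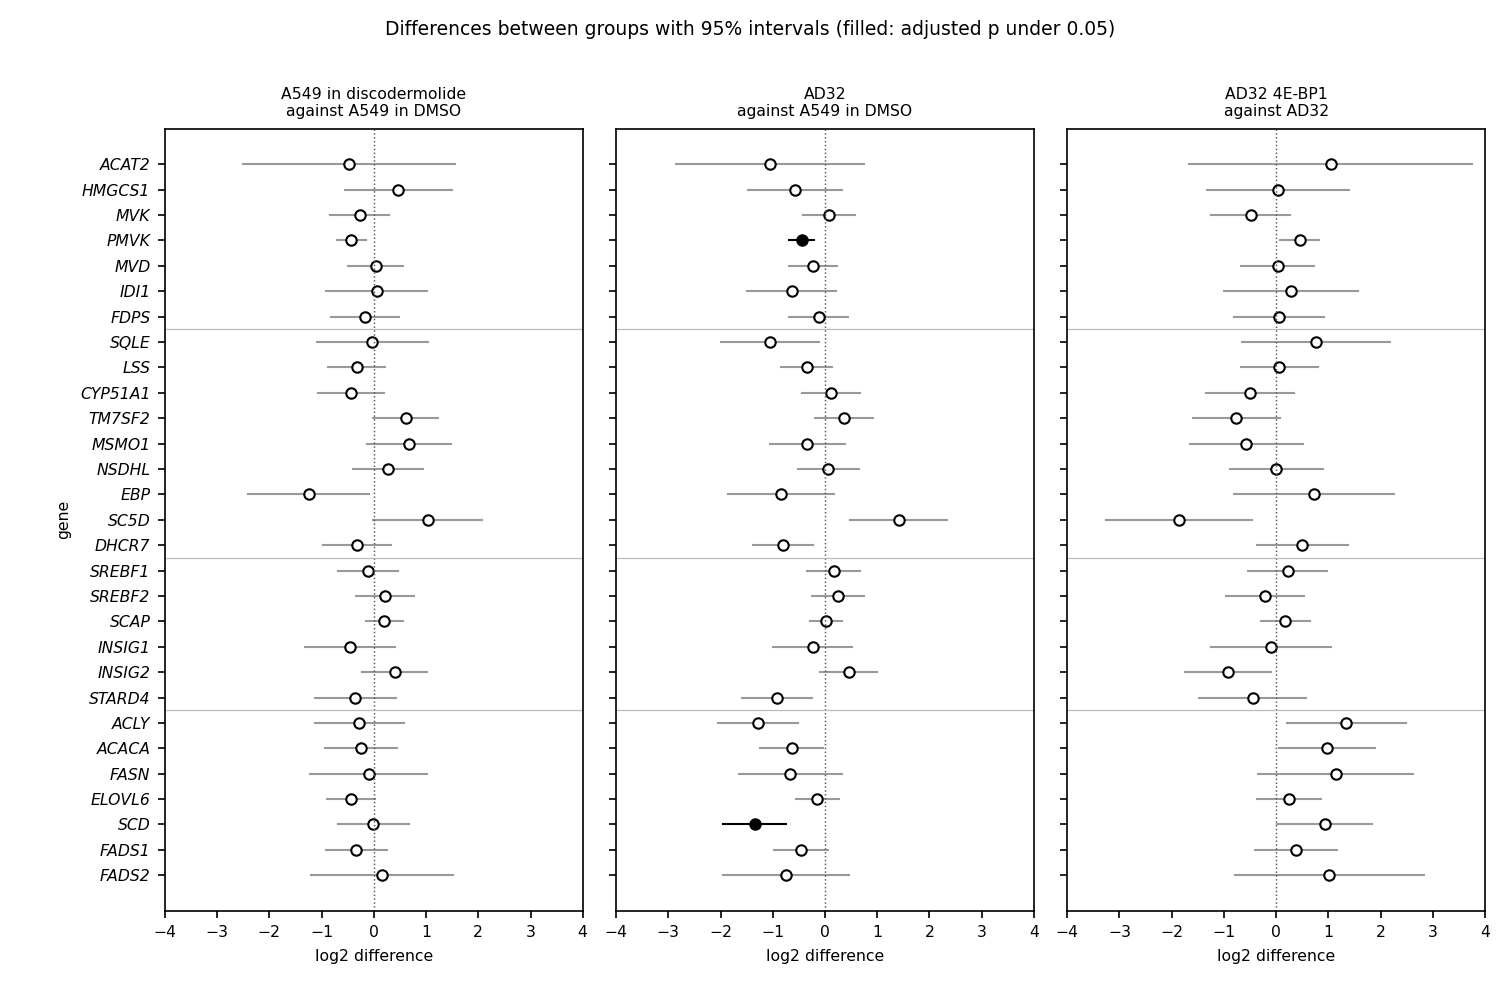
Log2 difference of each of the 29 members (points) with its 95% interval from limma (lines) in 3 comparisons, filled where the adjusted p was under 0.05. Only PMVK and SCD are filled, in AD32 against A549 DMSO. The fatty acid rows lie below 0 there and above 0 for the lone AD32 4E-BP1 array against AD32. That array was in DMSO and AD32 in discodermolide.

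Genes next to these routes were also called in AD32. Their lists were drawn up with earlier results of these data known, so the share called is not independent support. Of 47 measured genes of sterol handling, sterol sensing and lipid metabolism outside the member list, 3 rose and 6 fell against A549 DMSO (19.1%, against 5.72% of all genes), with a median log2 difference of -0.03. In sterol uptake, trafficking, efflux and storage 4 of 17 were called. NPC1, which moves cholesterol out of lysosomes, was 8.63, 8.75, 8.97 and 9.03 in A549 DMSO and 10.18, 10.75 and 9.29 in AD32 (2.34-fold, limma adjusted p = 0.0437). LIPA, the lysosomal acid lipase that frees cholesterol from its esters, was 9.09 to 9.26 in A549 DMSO and 8.67, 8.10 and 8.37 in AD32 (1.74-fold lower, adjusted p = 0.0212). NR1H3, the sterol-activated nuclear receptor LXR-alpha, was 8.39, 7.52, 7.62 and 7.71 against 7.17, 6.48 and 6.54 (2.11-fold lower, adjusted p = 0.0351). SOAT1, which esterifies cholesterol for storage, fell 1.60-fold (adjusted p = 0.0428).

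Among the other fatty acid and glycerolipid genes 5 of 22 were called. The elongase ELOVL7 rose 2.31-fold (10.01, 10.27 and 9.42 in AD32 against 8.45 to 8.97) and MLXIPL, which encodes the glucose-responsive lipogenic factor ChREBP, 2.22-fold (7.54, 7.57 and 6.72 against 5.76 to 6.66). The elongase ELOVL5 fell 1.58-fold, ACSL4, an acyl-CoA synthetase of polyunsaturated chains, 1.90-fold, and PNPLA3, a lipid droplet enzyme gene regulated with the lipogenic set, 2.45-fold. Limma adjusted p-values of these 5 lay between 0.0145 and 0.045. ELOVL5 was 10.20, 10.43 and 10.55 in AD32 and 11.05 on average in A549 DMSO, and PNPLA3 was 5.34, 4.60 and 5.21 against 5.86 to 6.93. The PNPLA3 values in AD32 lay near the lower quartile of the arrays (4.77 to 4.94), so its fold is uncertain. Genes that were not called included some split within AD32, such as LRP8, a lipoprotein receptor, at 7.84, 7.28 and 9.86 (8.56 to 9.48 in A549 DMSO), and TMEM97, a sterol-responsive membrane protein gene, at 8.90, 8.80 and 10.79 (9.64 to 10.64). Both were chosen after their values were seen. Among the remaining sterol synthesis and sensing genes 0 of 8 were called by limma.

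All 9 of these calls ended without AD32 replicate 2 (limma adjusted p = 0.0548 to 0.149). Of the 9, 7 ended without AD32 replicate 1 (0.0512 to 0.148) and 1, NR1H3, without AD32 replicate 3 (0.0606). Without A549 DMSO replicate 2, 3 or 4 the number that ended was 5, 8 and 8 (adjusted p up to 0.0993, 0.125 and 0.133), and 8 ended with replicates 3 and 4 averaged. On the AD32 4E-BP1 array these genes stood at or near A549 DMSO levels, NPC1 at 8.60, LIPA at 9.09, NR1H3 at 7.61, ELOVL5 at 11.06, ELOVL7 at 8.36 and PNPLA3 at 6.26. SOAT1, at 8.72, lay within the AD32 range of 8.49 to 8.85. None of the 47 was called for AD32 4E-BP1 against AD32 by limma, where ELOVL7 had the log2 difference of -1.54 (adjusted p = 0.098).

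In treated A549 0 of the 47 were called by limma against DMSO, where 0.372% of all genes were. An unadjusted limma p under 0.05 was found for 8, all higher (against 11.1% of all genes in either direction). Their median log2 difference over the 47 was 0.18, against 0.02 over all genes. In AD32 against treated A549, 5 were called and all were lower (10.6%, against 3.74% of all genes). The same limit from the choice of the lists holds for this share. LIPA was 2.57-fold lower (9.55 and 9.93 in A549 disco, limma adjusted p = 0.00616), FADS3, a desaturase-like gene beside FADS1 and FADS2, 2.08-fold (9.84 and 9.41 against 8.65, 8.30 and 8.77), ELOVL5 1.70-fold, ACSL4 2.29-fold and PNPLA3 2.85-fold. Without A549 disco replicate 2 all 5 calls ended (adjusted p = 0.0644 to 0.272), and without A549 disco replicate 1 all but LIPA did (0.12 to 0.267). Without AD32 replicate 1 or 2, the same 4 genes other than LIPA lost their calls (limma adjusted p = 0.0509 to 0.11 and 0.053 to 0.099). The fold of PNPLA3 is uncertain here too, since its AD32 values lay near the lower quartile.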

How the data were processed

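Total RNA from 10 samples was labelled with biotin and hybridised to Affymetrix arrays, 1 per sample. The deposited values are log2 signals per probe set, judged from their range, which the authors made in Expression Console (Affymetrix), as the submitters' processing notes name it. Its version, summarisation and normalization are not given here by any source. Array medians lay between 6.50 and 6.63. No array carries a detection call, and the number of arrays limits the precision.

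Of 24308 probe sets, 19262 name 1 gene, 1720 several and 3326 none. Symbols were updated through Entrez identifiers (19232 matched RefSeq), and for each of 18279 genes the probe set with the highest mean was used. Limma 3.58.1 in R 4.3.3 (lmFit, eBayes) was fitted to all 10 arrays with 4 group means, 6 residual degrees of freedom and no block. P-values were two-sided and adjusted over every gene by Benjamini-Hochberg, with a threshold of 0.05. The fit was also run on simulated data with independent normal noise and 1 spread per gene over all arrays. Those data held no array that stands apart and no near-identical arrays. The run therefore cannot tell how far the calls depend on such arrays. Groups came from the sample descriptions.

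Every member is accounted for. Levels by array are given, though not in every group, for members called in any comparison and the 3 largest rises and falls in each. The same holds for SREBF1, SREBF2, INSIG1, HMGCS1, FASN and SCD. Of the other pathway genes, up to 4 called genes per list and comparison are named, by smallest p. ACSL4, named through AD32 against A549 disco, is also given for AD32 against A549 DMSO. The members, lists and alternatives were chosen with earlier results of these data known. Python 3.11.15 was used for descriptions and figures.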

Additional observations from a re-analysis of the deposited data

Results flagged for a closer look

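Within the 4 A549 DMSO arrays, 5 of 29 members had an array whose gap to the nearest other exceeded Dixon's 95% critical share of the group's range, and in each of them the array was replicate 1. Chance alone flags about 1 in 20 groups, but the members share the same 4 arrays and are not independent. The share flagged over all genes was not computed. Replicate 1 was over 2-fold apart from the other arrays of its group for 1730 to 2126 genes, against 1 to 103 genes between those others. ACAT2 was 6.82 on replicate 1 against 8.98 to 9.22 on the others, SQLE 9.44 against 10.56 to 10.69, NSDHL 8.52 against 9.40 to 9.43 and ACLY 11.86 against 12.38 to 12.48. MVD lay the other way, at 9.03 against 8.29 to 8.35. The same array had a G2/M mean of 6.87 against 9.92 to 10.08, and whether the members' values go with that was not tested.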

How the results depend on the processing

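Member calls depended mainly on which arrays were used. For AD32 against A549 DMSO, where 2 members were called by limma, the count was 1 with the lowest genes left out, 1 with a trended robust prior, 1 with only the compared groups fitted, 0 with A549 DMSO replicates 3 and 4 averaged and 15 with array weights. The weights were 2.9 and 4.6 for the near-identical A549 DMSO replicates 3 and 4, and 0.18 for A549 DMSO replicate 1. The numbers of all genes called with these weights are given below. Leaving out A549 DMSO replicate 1 and AD32 replicate 3 together gave 17 member calls (28.3% of all genes were called). The members' median log2 difference then moved from -0.35 to -0.64. Leaving out single arrays gave counts from 0 to 11 and medians from -0.59 to -0.17, with 0 calls without AD32 replicate 1 or 2 or A549 DMSO replicate 3 or 4 and 11 without AD32 replicate 3. For A549 disco against A549 DMSO, array weights gave 10 and both arrays left out 4 (14.5% of all genes), against 0. For AD32 against A549 disco these gave 3 and 9 (15.1% of all genes for the latter), and single arrays 0 to 4, against 0. For AD32 4E-BP1 against AD32 they gave 4 and 11 (16.4% of all genes for the latter), and single arrays 0 to 6, against 0. AD32 4E-BP1 against A549 DMSO had 0 member calls under each alternative run.

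Same-numbered arrays of AD32 and A549 DMSO deviated from their group means with correlations over genes of 0.68, -0.26 and 0.41, so the numbers were not taken to pair samples. With the replicate number as a block, AD32 against A549 DMSO had 1 member call (SCD, limma adjusted p = 0.0477) and PMVK had an adjusted p of 0.154. No block could be fitted for the lone AD32 4E-BP1 array. No value that passed the test changed sign under any alternative run. Untested signs did change: the members' median for A549 disco against A549 DMSO was -0.11 and 0.11 with the block, and 88 of 2044 single-gene values changed sign where neither value passed.

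Over all genes, the number called for AD32 against A549 DMSO was 1045, and 4215 with array weights, 5164 with both arrays left out, 525 with replicates 3 and 4 averaged and 650 with the block. For A549 disco against A549 DMSO it was 68, and 4573, 2656, 15 and 4. For AD32 against A549 disco it was 683, and 1869 with weights and 2769 with both left out. For AD32 4E-BP1 against AD32 it was 168, and 1282 and 3005. The number of arrays limits which differences pass: PMVK passed at 1.36-fold, with little spread between arrays, and ACAT2, with much, did not at a log2 difference of -1.05.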
